A study of Mus musculus with 50 samples.

Results

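WT ESCs held 5404 SUZ12 peaks, and 1117 of them (20.7%) shared no base with an H3K27me3 peak of the same cells. These 1117 regions are called unmarked SUZ12 peaks here, and the other 4287 (79.3%) are called marked SUZ12 peaks. The members were chosen from the positions in the WT SUZ12 and WT H3K27me3 lists, so the strength, width and neighbourhood of these WT peaks describe the choice and were not tested. "Unmarked" means that no H3K27me3 peak was called at a p of at most 1e-10, and it does not mean that the mark was absent.

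The cells were mouse ESCs of the E14 line, kept in medium with LIF and the inhibitors of the ground state. *Ezh2* KO and *Ezh1/2* dKO ESCs carried CRISPR deletions of the named genes, and *Ezh2* Y726D and *Ezh2* R685C ESCs carried a point mutation of EZH2 in cells that also lacked *Ezh1*. The paper reports that the Y726D mutation abolishes the catalytic activity of EZH2. SUZ12 and H3K27me3 were profiled by ChIP-seq in WT and in these 4 mutant lines, and the H3K27ac lists used here cover the 4 mutant lines. H3K27me2 and H3K27me1 ChIP-seq, ATAC-seq and RNA-seq covered WT and all mutants but *Ezh2* R685C. HA ChIP-seq covered *Ezh1/2* dKO cells transfected with a plasmid for HA-tagged human EZH1. It also covered untransfected *Ezh1/2* dKO cells, which had no tagged protein. Each mutant is described through a single line here. 1 ChIP-seq library per line and target was used, so differences between lines have no replicate check and were not tested. Intervals on shares of peaks are 95% confidence intervals (Wilson for a share, Newcombe for a difference) that cover counting error only, and neighbouring peaks are not independent. RNA-seq had 2 libraries per line, with 3604123 to 5181553 reads each. The reads behind the ChIP-seq lists are not known.

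PRC2 is the Polycomb complex that methylates lysine 27 of histone H3. SUZ12 is the subunit that holds the complex together and brings it to CpG-rich DNA, and EZH1 and EZH2 are its alternative catalytic subunits. H3K27me3 marks repressed developmental genes, H3K27me2 covers broad stretches of the genome between them, and H3K27ac occupies the same lysine at active promoters and enhancers, so that a nucleosome tail cannot carry acetylation and methylation at once.

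Sequences are shown for 5 unmarked peaks, because CpG density was the property that these regions shared without being chosen for it. *Tchh*, *Shisa6* and *Fgf5* had the 3 highest WT SUZ12 values among the unmarked peaks. *Gpr50* is a member on chromosome X, and *Utf1* is a member with H3K27ac in all 4 mutant lines, and these 2 were picked after their values were seen. Each is the plus strand of mm9 around the SUZ12 summit, without bases annotated as untranslated, and capitals mark CG dinucleotides. The *Tchh* window, chr3:93250031-93250330, lies in the coding part of an exon and holds 23 CG. The *Shisa6* window, chr11:66339900-66340199, has its summit outside protein-coding genes and holds 36, and the edge of its SUZ12 peak lies 340 bp from the start site. The *Fgf5* stretch, chr5:98683118-98683202, ends at the annotated start of the gene and holds 10 in 85 bases. The *Gpr50* window, chrX:68917474-68917773, lies in the first intron and holds 40. The *Utf1* stretch, chr7:147129899-147130037, lies in the coding part of the first exon and holds 14 in 139 bases.
Tchh: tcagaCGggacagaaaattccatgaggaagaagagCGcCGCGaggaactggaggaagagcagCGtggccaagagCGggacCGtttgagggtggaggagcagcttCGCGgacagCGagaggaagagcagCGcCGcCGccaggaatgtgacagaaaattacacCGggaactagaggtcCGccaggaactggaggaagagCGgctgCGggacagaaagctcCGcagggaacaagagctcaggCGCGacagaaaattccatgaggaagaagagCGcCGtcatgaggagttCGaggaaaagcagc
Shisa6: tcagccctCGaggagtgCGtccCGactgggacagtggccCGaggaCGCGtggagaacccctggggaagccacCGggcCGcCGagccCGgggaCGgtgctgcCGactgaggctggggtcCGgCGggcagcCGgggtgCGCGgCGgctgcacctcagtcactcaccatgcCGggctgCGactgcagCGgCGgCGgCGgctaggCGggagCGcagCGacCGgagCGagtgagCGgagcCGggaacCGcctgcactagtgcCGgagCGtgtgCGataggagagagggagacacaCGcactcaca
Fgf5: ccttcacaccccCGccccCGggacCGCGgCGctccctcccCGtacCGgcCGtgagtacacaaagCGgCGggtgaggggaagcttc
Gpr50: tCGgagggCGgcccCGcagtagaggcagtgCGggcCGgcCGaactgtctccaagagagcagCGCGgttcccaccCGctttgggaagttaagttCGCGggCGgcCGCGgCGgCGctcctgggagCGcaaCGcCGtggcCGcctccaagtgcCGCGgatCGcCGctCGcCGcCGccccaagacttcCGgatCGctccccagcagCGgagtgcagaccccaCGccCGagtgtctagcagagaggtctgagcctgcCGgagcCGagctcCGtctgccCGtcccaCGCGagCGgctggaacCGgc
Utf1: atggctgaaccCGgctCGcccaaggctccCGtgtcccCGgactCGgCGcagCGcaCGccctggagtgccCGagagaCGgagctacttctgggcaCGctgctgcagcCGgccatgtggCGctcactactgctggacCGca

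The unmarked peaks were CpG-rich, as much as the marked peaks. In windows of 300 bp on the SUZ12 summits, the median GC content was 65.0% at unmarked and 64.7% at marked peaks, against 58.3% at 22356 gene starts. The median number of CG dinucleotides was 23, 23 and 15 in the same order. Windows with a GC content of at least 50% and an observed over expected CpG ratio of at least 0.6 made up 77.8% of unmarked peaks (869 of 1117), 73.7% of marked peaks and 48.7% of gene starts. Between peaks of like SUZ12 strength the unmarked ones held more CG. In the weakest quintile of all WT SUZ12 peaks, ranked by −log10 p, the medians were 21 at unmarked and 14 at marked peaks, and in the strongest quintile they were 32 and 28.

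Letters that match activating transcription factors were rarer than at gene starts. The ETS match CCGGAAGT (both strands searched) was in 0.448% of the unmarked windows, 0.373% of the marked windows and 4.84% of the windows at gene starts. The NRF1 motif matched 0% of the unmarked windows and 1.16% of gene starts, and the CRE match TGACGTCA was in 0.358% and 2.26%. The SP/KLF match GGGGCGGGG was in 6.71% of unmarked windows, 5.97% of marked windows and 14.6% of gene starts. GCGCGC went the other way, with 29.4%, 27.3% and 19.03%. The E-box CACGTG was in 6.09% of unmarked windows and 7.30% of gene starts. For each of these letters the shares at unmarked and marked peaks lay closer to each other than to the share at gene starts, and a match or its absence is no statement about a factor. The REST match TTCAGCACC, also searched, did not follow this, with 0.269%, 0.583% and 0.483%. Gene-start windows were centred on the start site. SUZ12 summits within 5 kb of one lay at a median of 215 bp (unmarked) and 268 bp (marked) into the gene. The part of this offset was not tested.

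Most unmarked peaks sat at gene starts. A start site of a protein-coding gene lay within 5 kb of 907 of them (81.2%) and within 1 kb of 797 (71.4%), against 80.3% and 65.7% of the marked peaks. Of the 902 unmarked summits within 5 kb of a start site, 633 (70.2%) lay downstream of it, at a median of 215 bp into the gene. The summits fell in exons of protein-coding genes for 38.2%, in their introns for 33.4% and outside these genes for 28.4%.

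The unmarked peaks were weaker and narrower than the marked ones, which is part of how they were found and is given as a description. Their median WT SUZ12 −log10 p was 14.2 (quartiles 11.7 and 18.8, range 10.2 to 84.1), against 27.6 (16.4 and 53.0) at marked peaks, and their median width was 461 bp against 1017 bp. Many lay at the margin of a marked domain. WT H3K27me3 was within 1 kb of 605 (54.2%), between 1 and 5 kb of 137 (12.3%) and beyond 5 kb of 375 (33.6%). Of the 605 near ones, 169 had H3K27me3 on both sides within 1 kb and 301 (49.8%) had a marked SUZ12 peak within 5 kb. At the edge of the rule, 66 peaks ended 1 to 100 bp away from H3K27me3 with a median SUZ12 −log10 p of 12.98, and 58 marked peaks shared 1 to 100 bp with it with a median of 14.1. The near and the far unmarked peaks are therefore given separately below.

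SUZ12 peaks of each mutant line overlapped a smaller share of the unmarked than of the marked peaks. Of the 1117 peaks, 59 overlapped a SUZ12 peak of *Ezh2* KO ESCs (5.28%, 4.12 to 6.75) and 8 one of *Ezh1/2* dKO ESCs (0.716%, 0.363 to 1.41). In the point mutants the numbers were 284 for *Ezh2* Y726D (25.4%, 23.0 to 28.1) and 150 for *Ezh2* R685C (13.4%, 11.6 to 15.6). The same shares at marked peaks were 28.2%, 5.995%, 50.6% and 62.5%. The difference from the marked peaks was −22.9 percentage points in *Ezh2* KO (−24.7 to −21.0), −25.2 in *Ezh2* Y726D (−28.0 to −22.1) and −49.1 in *Ezh2* R685C (−51.5 to −46.5). These lines had 1578, 317, 3366 and 3231 SUZ12 peaks in all, so the shares were not ranked between lines. With mutant peaks at a p of at most 1e-20 the unmarked shares were 1.16%, 0.0895%, 2.33% and 2.95%, which puts *Ezh2* R685C above *Ezh2* Y726D. A SUZ12 peak in at least 1 mutant line was found at 391 unmarked peaks (35.0%) and in all 4 lines at 6.

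**Figure D1:**
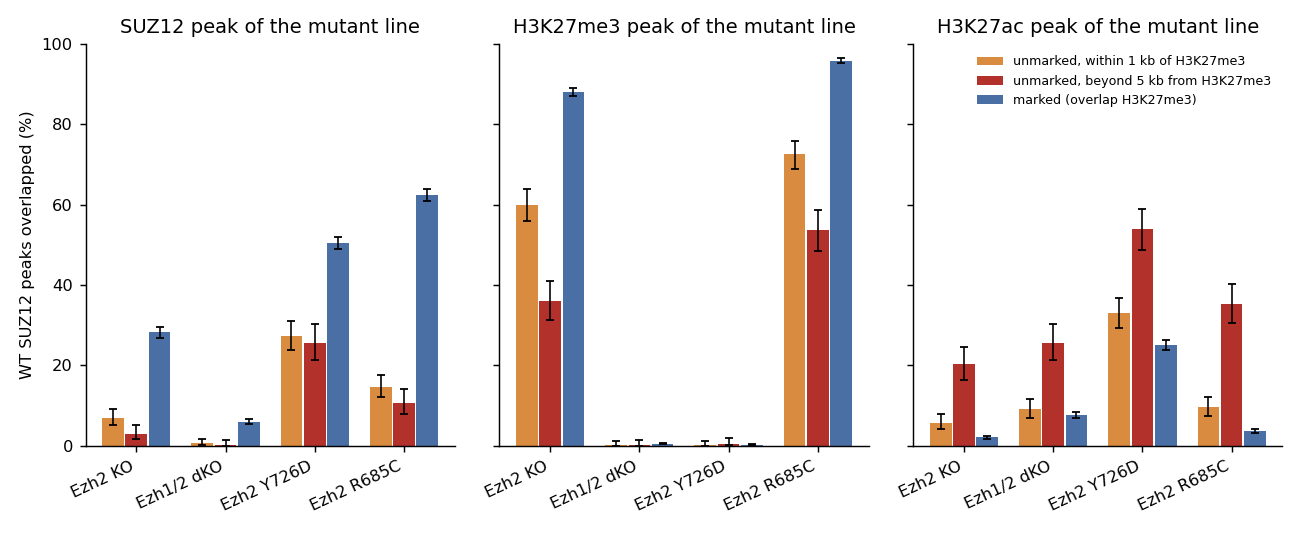
Share of WT SUZ12 peaks (y axis, percent) that overlapped a SUZ12, H3K27me3 or H3K27ac peak of each mutant line, for unmarked peaks within 1 kb and beyond 5 kb of WT H3K27me3 and for marked peaks. Bars start at 0 and error bars are Wilson 95% intervals. The H3K27ac bars of the far unmarked peaks are the tallest in each line (20.3%, 25.6%, 53.9% and 35.2%), while the marked peaks have the tallest H3K27me3 bars in *Ezh2* KO and *Ezh2* R685C (88.0% and 95.9%).

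The gap between unmarked and marked peaks was then taken within each line among peaks of like WT strength. In the weakest quintile of WT SUZ12 peaks, which held 467 of the unmarked ones, SUZ12 was kept in *Ezh2* Y726D at 17.8% of unmarked and 12.7% of marked peaks, a difference of 5.07 points (0.772 to 9.50). In the second quintile the shares were 24.7% and 22.6% (2.02 points, −3.24 to 7.54), and in the third 35.6% and 39.1% (−3.49 points, −10.7 to 4.16). In the fourth quintile, with 82 unmarked peaks, the unmarked share was lower, at 40.2% against 62.4% (−22.1 points, −32.5 to −10.9). In *Ezh2* R685C, whose single library was not tested against that of *Ezh2* Y726D, the unmarked share was lower throughout, with 7.28% against 32.4% in the weakest quintile (−25.1 points, −29.4 to −20.6), 11.1% against 35.7% in the second and 39.0% against 76.9% in the fourth. So in *Ezh2* Y726D the unmarked peaks were not lower beyond counting error among the 3 weaker quintiles, and in *Ezh2* R685C they were lower in each quintile. SUZ12 in *Ezh2* KO was kept at 0.428% and 0.489% of the weakest quintile and at 11.9% and 4.63% of the third (7.23 points, 3.09 to 12.7). Only in the third was the unmarked share the higher one. The shares were 1.66% and 2.08% in the second, 21.95% and 26.7% in the fourth and 76.9% and 82.8% in the strongest quintile.

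**Figure D2:**
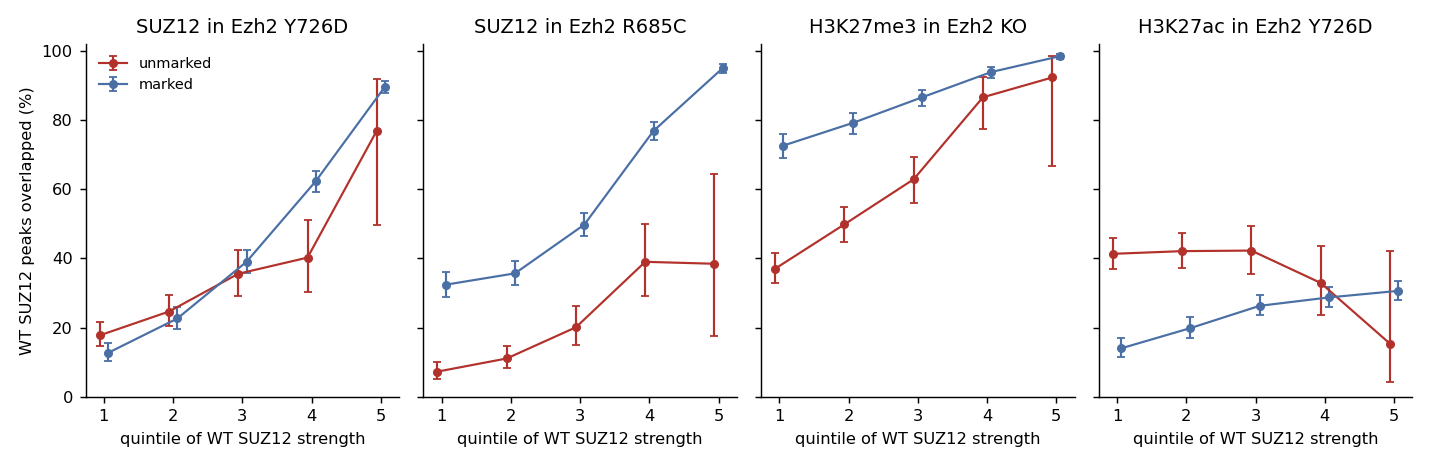
Share of WT SUZ12 peaks (y axis, percent) with a peak of the mutant line named in each panel, by quintiles of the WT SUZ12 −log10 p (x axis, weakest to strongest), for unmarked and marked peaks with Wilson 95% intervals. The lines for SUZ12 in *Ezh2* Y726D lie close together in the weaker quintiles (17.8% and 12.7% in the first), those for SUZ12 in *Ezh2* R685C are apart in all of them, and the strongest quintile holds only 13 unmarked peaks.

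H3K27me3 was called at many unmarked peaks in lines other than WT. An H3K27me3 peak of *Ezh2* KO ESCs overlapped 558 of the 1117 (49.96%, 47.0 to 52.9), with 60% of the near and 36.0% of the far ones. In *Ezh2* R685C it was 716 (64.1%), with 72.6% of the near and 53.6% of the far ones. The WT share is 0 by the choice of the members, so any other list could only be higher there. The *Ezh2* KO and *Ezh2* R685C lists held 8956 and 22245 peaks over 14.01 and 19.8 Mb, and the WT list 16754 over 14.5 Mb. Marked peaks had higher shares in both lines (88.0% and 95.9%), and the differences of −38.1 points (−41.1 to −35.0) and −31.8 points (−34.7 to −28.9) kept their sign in the weakest quintile (37.0% against 72.6% and 54.4% against 90.7%). The peaks called there were weaker than at marked sites, with a median −log10 p of 51.1 against 139 in *Ezh2* KO and of 35.8 against 140 in *Ezh2* R685C. In *Ezh2* Y726D and *Ezh1/2* dKO only 8 and 6 unmarked peaks overlapped H3K27me3. Their lists held 3862 and 53 H3K27me3 peaks in all, so the *Ezh2* Y726D list was not empty. The paper describes *Ezh2* Y726D as catalytically inactive and found nearly no H3K27me3 peaks in it or in *Ezh1/2* dKO. H3K27me3 in these lines is therefore given as called, and its source was not tested. No line, WT included, had H3K27me3 at 341 unmarked peaks (30.5%), 21.2% of the near and 44.3% of the far ones.

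The strongest unmarked peaks carried H3K27me3 in both of those lines. All of the 10 with the highest WT SUZ12 value had H3K27me3 in *Ezh2* KO and in *Ezh2* R685C and an HA-EZH1 peak. At *Tchh*, which encodes trichohyalin of the hair follicle, the WT SUZ12 −log10 p was 84.1 and the H3K27me3 value was 405.3 in *Ezh2* KO and 394.2 in *Ezh2* R685C. SUZ12 there was 30.2 in *Ezh2* KO, 18.1 in *Ezh2* Y726D and 84.1 in *Ezh2* R685C. *Dmrta2*, a DM domain transcription factor gene, had H3K27me3 values of 412.5 and 374.5. WT H3K27me3 began 605 bp from the *Tchh* peak and 377 bp from the *Dmrta2* peak. *Fgf5*, a growth factor gene that primed pluripotent cells express, lay far from any WT H3K27me3 (62953 bp). Its SUZ12 peak of 68.0 in WT was still called in *Ezh2* KO (14.6), *Ezh2* Y726D (19.7) and *Ezh2* R685C (32.3). H3K27me3 was called on it at 161 in *Ezh2* KO and at 116.7 in *Ezh2* R685C, and H3K27ac at 12.2 in *Ezh1/2* dKO and 17.0 in *Ezh2* Y726D. *Fst*, which encodes an activin antagonist, had no SUZ12 peak called in any of the 4 mutant lines, and had weak H3K27me3 (14.1 and 16.8) and H3K27ac in *Ezh2* Y726D (13.1).

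HA-EZH1, expressed in *Ezh1/2* dKO cells, was found at 233 unmarked peaks (20.9%, 18.6 to 23.3), at 27.4% of the near and 11.7% of the far ones. Marked peaks had it at 59.8%, and the difference was −39.0 points (−41.7 to −36.1). In the weakest quintile the shares were 7.50% and 14.3%, and in the fourth 72.0% and 81.2%. The background list from cells without a tagged protein overlapped 11 unmarked peaks (0.985%) and 1.12% of marked peaks.

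Over all chromosomes together, H3K27ac was more frequent at unmarked than at marked peaks in all 4 mutant lines. Its peaks overlapped 124 unmarked peaks in *Ezh2* KO (11.1%), 171 in *Ezh1/2* dKO (15.3%), 456 in *Ezh2* Y726D (40.8%) and 220 in *Ezh2* R685C (19.7%). Marked peaks had 2.099%, 7.65%, 25.1% and 3.71%. The differences were 9.002 points (7.23 to 11.02), 7.66 (5.50 to 10.01), 15.7 (12.6 to 18.9) and 16.0 (13.7 to 18.5), and the far unmarked peaks exceeded the near ones by 14.5 (10.2 to 19.1), 16.5 (11.6 to 21.6), 20.8 (14.5 to 26.97) and 25.6 points (20.3 to 31.0). The lists held 25483, 17618, 40829 and 41185 peaks, so shares are set side by side within a line and not between lines. WT H3K27ac was not analysed here, and a share in a mutant line is therefore no gain over WT. At least 1 line had H3K27ac at 491 unmarked peaks (44.0%, against 26.2% of marked peaks), and all 4 had it at 87 (7.79% against 1.38%). In the weakest quintile the difference in *Ezh2* Y726D was 27.3 points (22.0 to 32.5), with 41.3% against 14.01%, and in the strongest the unmarked share was 15.4% and the marked 30.6%. On chromosome X, with 83 unmarked and 35 marked peaks, the unmarked shares were the lower ones. They were 4.82% against 11.4% in *Ezh2* KO and 1.2% against 8.57% in *Ezh1/2* dKO. In *Ezh2* Y726D they were 15.7% against 20%, and in *Ezh2* R685C 10.8% against 14.3%.

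Within a line, H3K27ac was less frequent at unmarked peaks with H3K27me3 than at those without it, and the same held at marked peaks. In *Ezh2* KO, H3K27ac was at 9 of the 558 peaks with H3K27me3 there (1.61%) and at 115 of the 559 without it (20.6%). In *Ezh2* R685C it was at 55 of 716 (7.68%) and 165 of 401 (41.2%), so 55 peaks carried both marks. The shares at marked peaks were 0.769% and 11.9% in *Ezh2* KO and 2.55% and 30.5% in *Ezh2* R685C. The SUZ12 peaks of *Ezh2* KO went with H3K27me3, as all 59 of them had it in that line, against 499 of the other 1058 (47.2%). In *Ezh2* R685C this was 141 of 150 (94.0%) and 575 of 967 (59.5%). In *Ezh2* Y726D, where only 8 unmarked peaks had H3K27me3, SUZ12 and H3K27ac were not separated. H3K27ac was at 122 of the 284 peaks that kept SUZ12 (43.0%) and at 334 of the 833 that did not (40.1%).

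H3K27me3 in *Ezh2* KO and H3K27ac in *Ezh2* Y726D divided the unmarked peaks into groups that also differed in other lists. H3K27me3 without H3K27ac was found at 428 peaks (38.3%), H3K27ac without H3K27me3 at 326 (29.2%), both at 130 (11.6%) and neither at 233 (20.9%). HA-EZH1 was at 36.2% of the first group and 4.60% of the second. WT H3K27me2 touched 2.70% of the first and 39.7% of the second, and 24.3% and 52.5% of them lay beyond 5 kb from WT H3K27me3. *Ezh2* R685C had H3K27me3 at 498 of the 558 peaks with H3K27me3 in *Ezh2* KO (89.3%) and at 218 of the other 559 (39.0%).

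H3K27me2 was compared on the chromosomes present in all of its lists, which hold 1065 unmarked and 4104 marked peaks. In WT an H3K27me2 region touched 195 of the unmarked peaks (18.3%) and 3.46% of the marked ones, a difference of 14.9 points (12.6 to 17.3). It touched 10.2% of the near and 30.5% of the far unmarked peaks (20.2 points, 14.9 to 25.7). The difference between unmarked and marked peaks was present at like strength, with 19.8% against 3.90% in the weakest quintile and 7.60% against 2.83% in the fourth. WT H3K27me2 covered 11.9% of the bases of the unmarked peaks and 18.0% of the 5 kb on either side, so that the peaks themselves held less of it than their surroundings. In *Ezh2* KO the regions touched 903 unmarked peaks (84.8%) and 99.3% of marked peaks, and covered 81.1% of the unmarked bases against 59.5% of the flanks. In *Ezh1/2* dKO 11.4% and in *Ezh2* Y726D 28.7% were touched, against 28.0% and 47.4% of marked peaks. The list covered 355.6 Mb in WT and 405.3 Mb in *Ezh2* KO, and in *Ezh2* Y726D and *Ezh1/2* dKO it covered more, 610.0 and 621.9 Mb. The paper's western blots showed loss of bulk H3K27me2 in all 3 of these mutants. Its ChIP-seq showed accumulation at Polycomb-bound promoters in *Ezh2* KO. The larger coverage of the mutant lists is therefore not read as a gain of H3K27me2. The regions of these lists are weak and broad. When only the blocks inside the regions were used, WT H3K27me2 touched 0% of the unmarked peaks and that of *Ezh2* KO 36.6%, so the WT difference rests on the use of whole regions.

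H3K27me1 could be compared on 9 chromosomes with 568 unmarked peaks. Its regions touched 1.23% of them in WT against 0.276% of marked peaks. In *Ezh2* KO the shares were 11.97% and 30.7%, in *Ezh1/2* dKO 15.5% and 30.8%, and in *Ezh2* Y726D 42.8% and 64.3%. These regions were weak. With untouched peaks set to 0, the −log10 p at unmarked peaks in *Ezh2* Y726D had a median of 0 and an upper quartile of 1.37. The paper's western blots showed loss of H3K27me1 in *Ezh1/2* dKO and *Ezh2* Y726D, so these shares are not read as a gain. Open chromatin by ATAC-seq touched between 93.7% and 94.5% of the unmarked peaks in each of the 4 lines, but these lists cover 603.8 to 644.7 Mb and set few regions apart.

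**Figure D3:**
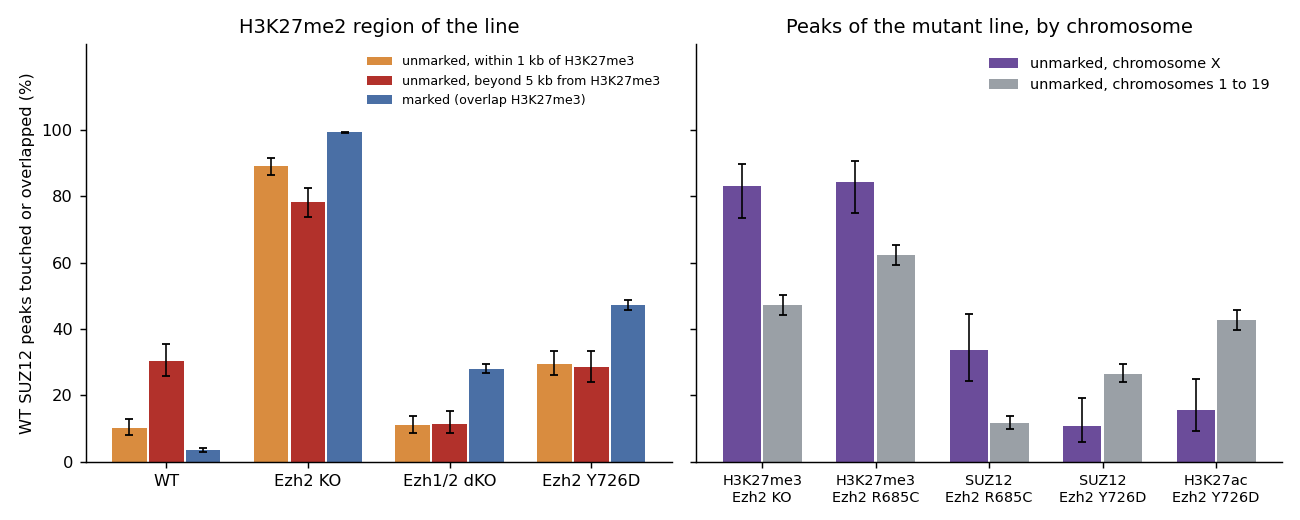
Left, share of WT SUZ12 peaks touched by an H3K27me2 region of each line (y axis, percent), for near and far unmarked peaks and marked peaks. Right, share of unmarked peaks on chromosome X and on chromosomes 1 to 19 that overlapped the named peak lists. Error bars are Wilson 95% intervals. Far unmarked peaks have the tallest WT H3K27me2 bar (30.5%), and peaks on X have more H3K27me3 in *Ezh2* KO (83.1% against 47.3%).

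Chromosome X stood apart. Of its 118 WT SUZ12 peaks, 83 were unmarked (70.3%), while on the other chromosomes 15.6 to 27.3% were. The WT H3K27me3 list held only 87 peaks on X of 16754 (0.519%), the *Ezh2* KO list 294 of 8956 (3.28%) and the *Ezh2* R685C list 394 of 22245 (1.77%), while 2.18% of the WT SUZ12 peaks lay on X. At the 83 unmarked X peaks, H3K27me3 was present at 83.1% in *Ezh2* KO, against 47.3% of the 1034 unmarked peaks on chromosomes 1 to 19 (35.8 points, 25.9 to 43.1). In *Ezh2* R685C it was at 84.3% and 62.5% (21.9 points, 12.1 to 28.8). SUZ12 was kept more often on X in *Ezh2* R685C (33.7% against 11.8%) and *Ezh2* KO (15.7% against 4.45%), and less often in *Ezh2* Y726D (10.8% against 26.6%, −15.8 points, −21.5 to −6.87). At marked peaks, SUZ12 in *Ezh2* Y726D was at 25.7% of the 35 on X and 50.8% of those on chromosomes 1 to 19, and in *Ezh2* R685C at 74.3% and 62.4%. H3K27ac in *Ezh2* Y726D was at 15.7% and 42.8% of the unmarked peaks (−27.2 points, −34.2 to −17.4). At marked peaks it was at 20% of the 35 on X and 25.1% of those on chromosomes 1 to 19. Among far peaks alone, 76.4% of the 55 on X had H3K27me3 in *Ezh2* KO, against 29.1% of those on chromosomes 1 to 19. The share of X in the H3K27me3 lists moves with this result, and its part was not tested. Without the X peaks, 47.3% of unmarked peaks had H3K27me3 in *Ezh2* KO and 62.5% in *Ezh2* R685C, so these 2 shares changed little. The few overlaps in other lines did move, from 0.716% to 0.290% for SUZ12 in *Ezh1/2* dKO, from 0.537% to 0.0967% for H3K27me3 there and from 0.716% to 0.290% for H3K27me3 in *Ezh2* Y726D.

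The 4 strongest X members were nearest to genes of different roles. They were *Gpr50*, an orphan G protein-coupled receptor gene (WT SUZ12 54.3), *Nhsl2* (53.0), *Bcor*, a subunit gene of a PRC1 variant (50.2), and *Cited1*, a transcriptional coactivator gene (50.2). Their H3K27me3 values in *Ezh2* KO were 159, 285.7, 91.5 and 170.9. *Cited1* lay 179549 bp and *Gpr50* 109230 bp from the nearest WT H3K27me3 peak, whereas *Nhsl2* lay 422 bp from one.

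A few unmarked peaks overlapped SUZ12 or H3K27me3 in the lines where almost none did. Of the 8 unmarked peaks with SUZ12 in *Ezh1/2* dKO, 6 also had an HA peak in cells without a tagged protein. Those 6 were the only ones with H3K27me3 in *Ezh1/2* dKO, and they were 6 of the 8 with H3K27me3 in *Ezh2* Y726D. 5 of them lay together at chrX:166415765-166425771, by *Mid1* and *Gm17379*, with H3K27me3 values of 406.4 to 444.8 in *Ezh2* Y726D, and the sixth at chr17:39984826-39985813. The part of the background signal in these calls was not tested. Without the 11 members that have a background HA peak, SUZ12 in *Ezh1/2* dKO remained at 0.181% of the unmarked peaks, at 2 peaks near *Cplx2* and *Filip1l* (13.6 and 12.8), and H3K27me3 in *Ezh2* Y726D at 0.181%, at the imprinted genes *Grb10* (17.2) and *Peg10* (10.1).

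Genes were tied to unmarked peaks by a start site within 5 kb. Only unmarked peaks were near 560 protein-coding genes, of which 522 were in the RNA-seq table, and these are called genes of unmarked peaks. Another 291 had both kinds of peak, 259 of them in the table. Because 311 unmarked peaks shared all of their genes with a marked peak, 596 of the 1117 had a gene of their own.

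In WT ESCs the genes of unmarked peaks were expressed at levels between those of marked peaks and those without a SUZ12 peak. Their median was 7.21 normalized counts per kb (7.20 and 7.85 in the libraries, quartiles 1.81 and 30.1). Genes with both kinds of peak had 3.08, genes of marked peaks 1.37 and genes without a SUZ12 peak 34.8. The median was 5.60 for the 213 genes near H3K27me3 and 11.7 for the 261 far from it. On X it was 1.44, against 18.1 for X genes without a SUZ12 peak. In the mutant lines the libraries' medians were 6.72 and 7.39 in *Ezh2* KO, 11.3 and 11.4 in *Ezh1/2* dKO and 9.53 and 8.43 in *Ezh2* Y726D, and only those of *Ezh1/2* dKO and *Ezh2* Y726D lay above both WT medians.

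**Figure D4:**
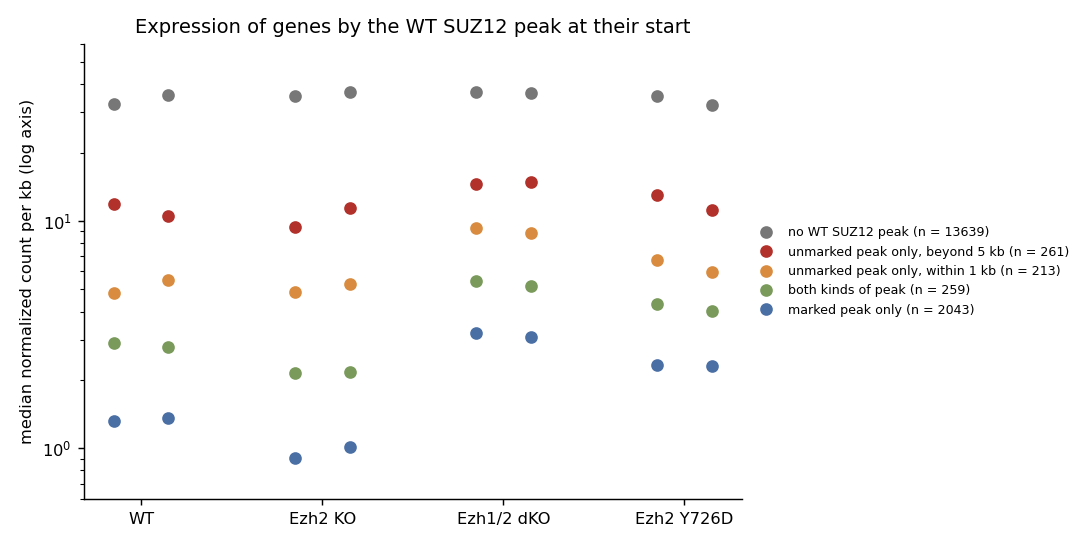
Median expression (y axis, normalized counts per kb, log axis) in each of the 2 RNA-seq libraries per line (points) for genes grouped by the WT SUZ12 peak at their start. In every library the order of the medians is the same, from genes of marked peaks at the bottom to genes without a peak at the top, with the genes of unmarked peaks between them. The 48 genes of unmarked peaks 1 to 5 kb from H3K27me3 are not drawn (WT median 7.99).

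The WT level of a gene followed the marks its peak had in the mutants. Genes whose unmarked peak had H3K27me3 in *Ezh2* KO had a WT median of 3.03 per kb (211 genes), and those without 14.7 (311). With H3K27ac in *Ezh2* Y726D it was 15.7 (274 genes) and without 3.26 (248). In *Ezh2* R685C, H3K27ac went with 30.5 and its absence with 4.35. Keeping SUZ12 in *Ezh2* Y726D made little difference (6.28 and 8.06). Sorted by WT level, H3K27me3 in *Ezh2* KO was at 66.3% of 89 genes below 1 count per kb, 48.8% of 205 between 1 and 10, 25.5% of 188 between 10 and 100 and 10% of the 40 above that. H3K27ac in *Ezh2* Y726D was at 20.2%, 43.9%, 71.8% and 77.5%. SUZ12 kept in *Ezh2* Y726D did not follow the level, at 32.6%, 37.6%, 31.4% and 30.0%.

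The deleted genes matched the labels. *Ezh2* was 597.6 and 545.9 normalized counts in WT, 1.05 and 0.968 in *Ezh2* KO and 0.824 and 1.78 in *Ezh1/2* dKO. *Ezh1* was 226.8 and 377.4 in WT, 14.01 and 20.4 in *Ezh1/2* dKO and 24.1 and 15.7 in *Ezh2* Y726D. *Ezh2* itself was 421.7 and 613.1 in *Ezh2* Y726D, where the point mutation leaves the transcript.

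Expression was tested with limma across 13872 genes on log2 of the normalized count plus 1, with calls made below an adjusted p of 0.1 for log2 fold changes of at least 1 in size. Of the 441 genes of unmarked peaks with a mean count of at least 5, 32 were higher and 2 lower in *Ezh1/2* dKO (7.26% and 0.454%), where 3.63% of all genes were higher and 0.389% lower. Their median log2 fold change was 0.45, against 0.01 over all genes, and 72.3% lay above 0. Genes of marked peaks had 182 of 1230 higher (14.8%, median 0.89) and genes without a peak 252 of 11269 (2.24%). In *Ezh2* Y726D, 16 were higher and 7 lower (3.63% and 1.59%), where 1.66% and 1.06% of all genes were, with a median of 0.21 against −0.01. Genes of marked peaks had 103 higher (8.37%, median 0.57). When only the *Ezh2* Y726D and WT libraries were fitted, 1 gene of unmarked peaks (*Sh3pxd2b*) was higher and 0 were lower by limma, beside 20 and 12 of all genes then tested. On the recovered reads edgeR called 14 higher and 6 lower and DESeq2 23 and 9 in *Ezh2* Y726D, and 34 and 2 and 37 and 2 in *Ezh1/2* dKO. Counts by edgeR and DESeq2, and those without 1 library below, are set beside the main counts only. They have no share of all genes beside them and are no result about the unmarked peaks. In *Ezh2* KO 0 were higher and 2 lower by limma, where 0.0937% and 0.31% of all genes were, and 62 had an unadjusted p under 0.05 (14.1%, against 8.83% of all genes). For this line edgeR called 0 higher and 1 lower and DESeq2 0 and 8. Single libraries carried some of these counts. Leaving out replicate 1 or replicate 2 of *Ezh1/2* dKO left 0 higher and 0 lower genes in that line. In *Ezh2* Y726D, 8 higher and 4 lower genes were left without its replicate 2, and 13 and 12 without its replicate 1. In *Ezh2* KO, 1 higher and 5 lower genes were called without WT replicate 2 and none without WT replicate 1 or *Ezh2* KO replicate 2. In bulk RNA, fewer cells of a type and less RNA per cell cannot be told apart.

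The counts were also taken by distance and by SUZ12, without a test of the difference. In *Ezh1/2* dKO 18 of 178 genes near H3K27me3 were higher (10.1%, median 0.70) and 12 of 224 far ones (5.36%, median 0.32). In *Ezh2* Y726D 7 near genes were higher and 1 lower, and 6 far genes were higher and 5 lower (3.93% and 0.562%, and 2.68% and 2.23%). Of the 148 genes whose peak kept SUZ12 in *Ezh2* Y726D, 2 were higher and 5 lower in that line (1.35% and 3.38%), and of the 293 whose peak did not, 14 and 2 (4.78% and 0.683%), beside 1.66% and 1.06% of all genes. The *Ezh1/2* dKO counts fall to 0 without either of its libraries, as above. *Ezh1/2* dKO and *Ezh2* Y726D share the WT libraries as control, so these counts are given side by side. Called in both lines were 8 higher genes and 1 lower gene, and no overlap over all genes is set beside them here.

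The 3 genes with the largest rise in *Ezh1/2* dKO all had an unmarked peak within 1 kb of WT H3K27me3. *S1pr3*, a receptor gene for sphingosine 1-phosphate, had 6.67 and 2.89 normalized counts in WT, 13.6 and 29.0 in *Ezh2* KO, 61.0 and 71.0 in *Ezh1/2* dKO and 14.3 and 13.4 in *Ezh2* Y726D. *Slc30a4*, a zinc transporter gene, had 6.67 and 1.93, 10.5 and 1.94, 49.5 and 46.2, and 20.5 and 12.3 in the same order. *Parm1*, which encodes a mucin-like membrane protein, had 17.3 and 22.1, 22.0 and 26.1, 113.7 and 239.7, and 46.4 and 104.0. The *Ezh1/2* dKO libraries lay above all others for each of the 3 genes. Their log2 fold changes were 3.61 ± 0.53 (SE, limma adjusted p = 0.0159), 3.36 ± 0.74 (0.0525) and 3.01 ± 0.48 (0.0227). Each of these calls, like the other *Ezh1/2* dKO calls named here, was lost without either *Ezh1/2* dKO library, and that of *Slc30a4* also without WT replicate 2. The *Slc30a4* peak had H3K27me3 of 95.1 in *Ezh2* KO and 74.96 in *Ezh2* R685C, and an HA-EZH1 peak. The *S1pr3* peak had H3K27ac in *Ezh2* Y726D (14.1), and none of the 3 had H3K27ac in *Ezh1/2* dKO.

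**Figure D5:**
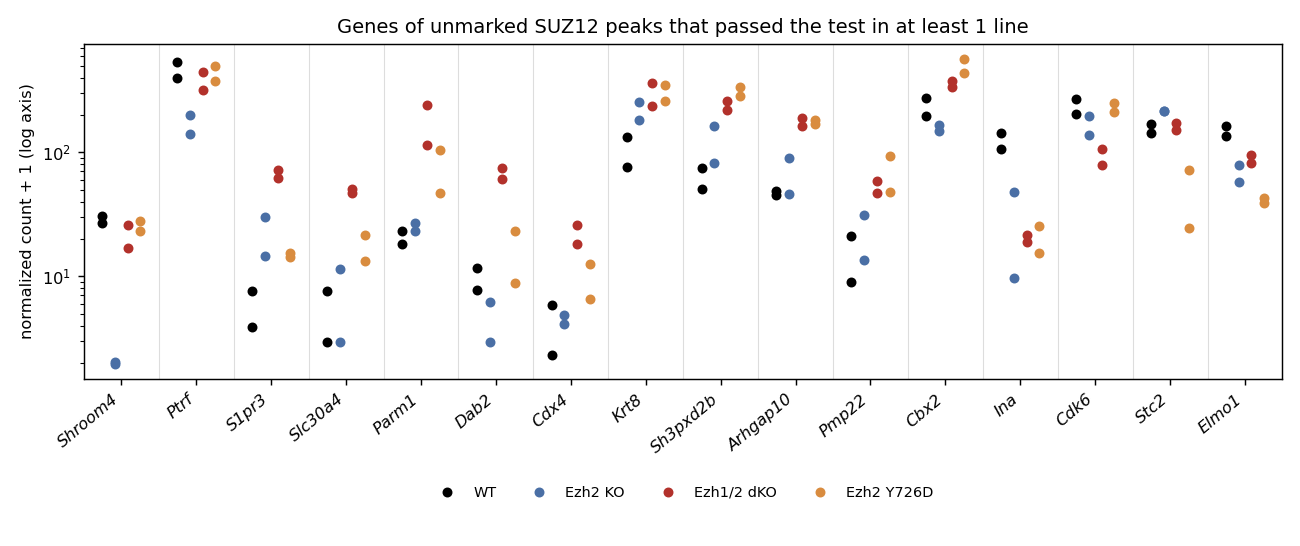
Normalized count plus 1 (y axis, log axis) of the named genes of unmarked peaks that passed the test in at least 1 line, with a point for each RNA-seq library (black WT, blue *Ezh2* KO, red *Ezh1/2* dKO, orange *Ezh2* Y726D). The red points of *S1pr3*, *Slc30a4*, *Dab2* and *Cdx4* lie above all others, both *Ezh2* KO points of *Shroom4* lie near the bottom of the axis, and both orange points of *Elmo1* lie below all others.

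*Sh3pxd2b* and *Arhgap10* rose in *Ezh2* Y726D and also in *Ezh1/2* dKO. *Sh3pxd2b*, an adaptor gene of podosomes, had 73.4 and 49.1 counts in WT, 80.5 and 162.6 in *Ezh2* KO, 217.6 and 257.5 in *Ezh1/2* dKO and 281.7 and 332.3 in *Ezh2* Y726D. *Arhgap10*, which encodes a GTPase-activating protein, had 44.0 and 48.1, 45.0 and 89.0, 189.6 and 162.5, and 169.4 and 181.2. For both genes the libraries of these 2 lines lay above those of WT and *Ezh2* KO. The changes in *Ezh2* Y726D were 2.33 ± 0.34 (limma adjusted p = 0.0168) and 1.91 ± 0.33 (0.0324), and both passed when any 1 of the 4 libraries was left out. Such a fit leaves a line with 1 library, which is assumed to vary like the other lines. The *Arhgap10* call was lost when only the *Ezh2* Y726D and WT libraries were fitted. In *Ezh1/2* dKO they were 1.96 ± 0.34 (limma adjusted p = 0.0275) and 1.91 ± 0.33 (0.0268). Both unmarked peaks had H3K27ac in these 2 lines, at 15.2 and 28.1 for *Sh3pxd2b* and at 13.2 and 19.5 for *Arhgap10*, and neither kept SUZ12 in a mutant line. *Pmp22*, a peripheral myelin protein gene whose peak ended 28 bp from H3K27me3, had 8.004 and 20.2 counts in WT and 92.7 and 47.0 in *Ezh2* Y726D (2.28 ± 0.58, limma adjusted p = 0.0959). That call was lost without WT replicate 1 and without either *Ezh2* Y726D library, and it was kept in only 3 of 9 other settings (limma, edgeR or DESeq2 adjusted p up to 0.243).

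The genes that fell were at peaks of different kinds. *Shroom4*, an X-linked gene for an actin-binding protein, had 29.4 and 26.0 counts in WT, 1.05 and 0.968 in *Ezh2* KO, 24.7 and 16.0 in *Ezh1/2* dKO and 26.8 and 22.4 in *Ezh2* Y726D. Its log2 fold change in *Ezh2* KO was −3.83 ± 0.48 (limma adjusted p = 0.0164), a call lost without WT replicate 1 or either *Ezh2* KO library. Its peak had H3K27me3 in *Ezh2* KO (11.8) and no other SUZ12, H3K27me3 or H3K27ac peak in the mutant lines. *Ptrf*, the gene of a coat protein of caveolae, had 537.6 and 396.7 counts in WT and 139.1 and 198.4 in *Ezh2* KO (−1.47 ± 0.26, limma adjusted p = 0.083). This call too was lost without WT replicate 1 or either *Ezh2* KO library, and it was kept in 5 of 9 other settings. The *Ptrf* peak kept SUZ12 in *Ezh2* KO (10.9), *Ezh2* Y726D (28.6) and *Ezh2* R685C (23.0), and had H3K27me3 of 166.2 in *Ezh2* KO.

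In *Ezh1/2* dKO the lower genes were *Ina* and *Cdk6*. *Ina*, which encodes the neuronal intermediate filament internexin, had 141.4 and 104.9 counts in WT, 47.1 and 8.71 in *Ezh2* KO, 20.6 and 17.8 in *Ezh1/2* dKO and 14.3 and 24.6 in *Ezh2* Y726D. WT lay above all mutant libraries, with changes of −2.61 ± 0.67 in *Ezh1/2* dKO (limma adjusted p = 0.0804) and −2.64 ± 0.67 in *Ezh2* Y726D (0.0957). Each of these calls was lost whichever of its 4 libraries was left out, and in other settings the first was kept in 8 of 9 and the second in 4 of 9. Its peak had H3K27me3 of 296.7 in *Ezh2* KO. *Cdk6*, a G1 kinase gene, had 202.8 and 269.6 counts in WT, 195.5 and 136.4 in *Ezh2* KO, 105.5 and 77.3 in *Ezh1/2* dKO and 209.5 and 249.5 in *Ezh2* Y726D (*Ezh1/2* dKO −1.36 ± 0.27, limma adjusted p = 0.0375), and this call was also lost without WT replicate 2. Its nearest WT H3K27me3 peak was 1409931 bp away.

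In *Ezh2* Y726D *Elmo1* and *Stc2* fell. *Elmo1*, which encodes an adaptor that activates Rac in engulfment, had 133.4 and 161.8 counts in WT, 56.5 and 77.4 in *Ezh2* KO, 94.8 and 81.7 in *Ezh1/2* dKO and 41.9 and 38.0 in *Ezh2* Y726D (−1.85 ± 0.29, limma adjusted p = 0.0208). The *Elmo1* call passed without any 1 library but not when only the *Ezh2* Y726D and WT libraries were fitted, and its peak kept SUZ12 in that line (21.8) with no H3K27ac. *Stc2*, a gene for a secreted glycoprotein, had 168.1 and 142.5 in WT and 71.3 and 23.5 in *Ezh2* Y726D (−1.89 ± 0.42, limma adjusted p = 0.0661), a call lost without either WT library or *Ezh2* Y726D replicate 2. The *Stc2* peak had H3K27ac in all 4 mutant lines (44.0, 20.6, 23.5 and 60.4), SUZ12 in none of them, and lay 790647 bp from WT H3K27me3.

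Of the 18055 genes in the RNA-seq table, 522 were genes of unmarked peaks. The gene lists from here on are read beside this share, and none was tested against it. Among genes of the Polycomb machinery, 0 of the 12 PRC2 genes and 3 of the 25 PRC1 genes in the table were genes of unmarked peaks. The 3 were *Cbx2*, whose protein reads H3K27me3, and *Yaf2* and *Bcorl1* of variant PRC1 complexes. *Cbx2* had 273.5 and 194.5 counts in WT, 146.4 and 166.4 in *Ezh2* KO, 334.7 and 373.8 in *Ezh1/2* dKO and 433.3 and 562.7 in *Ezh2* Y726D. It rose in *Ezh2* Y726D by 1.09 ± 0.22 (limma adjusted p = 0.048), a call lost without WT replicate 2 or *Ezh2* Y726D replicate 2, and when only these 2 lines were fitted. *Yaf2*, with 54.7 and 76.1 in WT and 84.7 and 43.6 in *Ezh2* Y726D, and *Bcorl1*, with 128.1 and 71.3 in WT and 132.8 and 193.5, did not pass the test in any line.

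Of 24 pluripotency and ground state genes, 2 were genes of unmarked peaks, and both peaks lay far from WT H3K27me3 and had H3K27ac in all 4 mutant lines. *Utf1*, a chromatin-associated factor of pluripotent cells, had H3K27ac values of 52.3 in *Ezh2* KO, 24.0 in *Ezh1/2* dKO, 63.6 in *Ezh2* Y726D and 82.5 in *Ezh2* R685C, and no SUZ12 or H3K27me3 in any of them. Its counts were 1057 and 812.6 in WT, 947.3 and 746 in *Ezh2* KO, 673.4 and 625.1 in *Ezh1/2* dKO and 932.6 and 1223 in *Ezh2* Y726D. *Prdm14*, a repressor of differentiation genes, had H3K27ac of 14.5, 15.4, 32.4 and 11.8 in the same order of lines. It had 294.8 and 318.7 counts in WT and 545.7 and 547.8 in *Ezh1/2* dKO, a change of 0.83 ± 0.22 (limma adjusted p = 0.0907) that was below the fold limit. So these active genes had a called SUZ12 peak at their start in the single WT library. Its −log10 p was 17.3 at *Utf1* and 12.6 at *Prdm14*, and the second lies near the limit of the list (p of 1e-10).

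Of 37 Wnt, FGF and Notch signalling genes, 3 were genes of unmarked peaks and 17 had marked peaks only. *Fgf5* had 2.67 and 17.3 counts in WT, 3.14 and 2.90 in *Ezh2* KO, 16.5 and 7.10 in *Ezh1/2* dKO and 56.2 and 8.95 in *Ezh2* Y726D, so that its libraries overlapped between lines. *Dusp6*, the gene of an ERK phosphatase, had 492.2 and 303.3 counts in WT and 282.7 and 215.8 in *Ezh1/2* dKO, and its peak had H3K27ac in all 4 mutant lines (21.0, 13.1, 33.3 and 69.8). *Dkk1*, a Wnt antagonist gene, had a peak 94 bp from WT H3K27me3 with weak H3K27me3 in *Ezh2* KO (12.9) and *Ezh2* R685C (10.1). None of the 3 passed the test in any line. *Dnmt3b*, the only one of 9 DNA methylation and TET genes, kept SUZ12 in *Ezh2* Y726D (18.99) together with H3K27ac (17.3) and had 1011 and 489.1 counts in WT and 641 and 1238 in *Ezh2* Y726D. *Hdac3*, a deacetylase gene, was the only one of 9 genes for enzymes that add or remove acetylation or remove methylation at H3K27. The imprinted genes *Peg10* and *Sgce* (2 of 23) share 1 unmarked peak, with H3K27me3 in *Ezh2* KO (34.2), *Ezh2* Y726D (10.1) and *Ezh2* R685C (52.7). *Peg10* had 329.5 and 162.7 counts in WT and 352.8 and 424.4 in *Ezh1/2* dKO, and neither gene passed the test.

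Of 208 genes of developmental transcription factor families, 9 were genes of unmarked peaks, 29 had both kinds of peak and 136 had marked peaks only. They include *Cdx4*, *Foxj2*, *Foxo1*, *Hoxc13*, *Pou3f4*, *Sox3*, *Sox30* and *Zic2*, and 6 of the 9 were tested. *Cdx4*, a caudal-type homeobox gene on X, had 1.33 and 4.81 counts in WT, 3.14 and 3.87 in *Ezh2* KO, 17.3 and 24.9 in *Ezh1/2* dKO and 11.6 and 5.59 in *Ezh2* Y726D. It rose in *Ezh1/2* dKO by 2.56 ± 0.66 (limma adjusted p = 0.0818), and the call was also lost without WT replicate 1 and kept in 4 of 8 other settings. *Zic2*, a zinc finger gene expressed in ESCs, had 164.1 and 182.9 counts in WT and did not pass the test. The *Zic2* peak had H3K27ac in all 4 mutant lines (29.6, 22.5, 50.7 and 37.1) and kept SUZ12 in *Ezh2* Y726D (17.6). None of 16 germline, 7 cell cycle inhibitor, 12 H3K4 methyltransferase complex, 81 ribosomal protein and 64 histone genes was a gene of unmarked peaks. With 522 such genes among 18055, a short list can miss them all, so these zeros were not read as a result.

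Some markers of other cell types moved in the same lines as the called genes. The 6 primitive endoderm markers summed to 20.01 and 35.6 counts in WT, 10.5 and 30.0 in *Ezh2* KO, 145.1 and 170.5 in *Ezh1/2* dKO and 63.3 and 55.9 in *Ezh2* Y726D, and 2 of the 4 tested, *Dab2* and *Gata4*, rose in *Ezh1/2* dKO. The 6 trophectoderm markers summed to 436.2 and 343.7 in WT and to 646.2 and 903.0 in *Ezh1/2* dKO and 584.9 and 1225 in *Ezh2* Y726D, and 2 of the 5 tested, *Krt8* and *Krt18*, rose in both lines. *Cdx2*, *Eomes* and *Tfap2c* did not pass the test in any line. The sum of 1225 includes *Cdx2* at 439.7, which had 33.0 in the other *Ezh2* Y726D library and 70.7 and 9.63 in WT. *Tfap2c* had 198.8 and 122.3 in WT and 54.4 and 179 in *Ezh2* Y726D. The 7 ESC markers summed to between 8049 and 9554 in all 8 libraries. *Dab2*, an endocytic adaptor gene, and *Krt8*, a keratin gene, were themselves genes of unmarked peaks. *Dab2* had 10.7 and 6.74 counts in WT and 74.2 and 60.4 in *Ezh1/2* dKO (2.84 ± 0.62, limma adjusted p = 0.0522), and *Krt8* had 74.7 and 131.9 in WT and 236.6 and 358.7 in *Ezh1/2* dKO (1.54 ± 0.33, limma adjusted p = 0.0442). The *Dab2* call was also lost without WT replicate 2 and the *Krt8* call without WT replicate 1. In *Ezh2* Y726D *Krt8* rose by 1.59 ± 0.33 (limma adjusted p = 0.0495), a call lost without WT replicate 1 or *Ezh2* Y726D replicate 2. The 3 two-cell-like markers in the table summed to 623 and 261.9 in WT, 14.6 and 15.5 in *Ezh2* KO, 614.9 and 879 in *Ezh1/2* dKO and 47.3 and 123.1 in *Ezh2* Y726D, and 2 of them fell in *Ezh2* KO and in *Ezh2* Y726D. Mesoderm and neural markers had 0 of 3 called in each line, and none of these 2 lists or of the ESC and two-cell-like markers was a gene of unmarked peaks. The part of other cell types in the changes at genes of unmarked peaks was not tested.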

How the data were processed

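The members and gene lists were chosen with earlier results of these data known. Reads of ChIP-seq and ATAC-seq were mapped to mm9 by the authors (Bowtie), freed of duplicates (Picard) and passed to MACS2 for peak calling. The deposited lists give for each peak or broad region a −log10 p and a fold enrichment over the library's own background, both ratio and p as MACS2 wrote them, while the deposited HA lists hold positions only. The authors counted RNA-seq reads with HTSeq-count after TopHat and deposited counts normalized with DESeq2, a signal per gene and library. 100% of these values came out as whole reads (tolerance 0.01 reads). Columns with the authors' own comparisons were not used.

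Overlaps needed 1 bp. Python 3.11.15 (numpy 2.4.6, scipy 1.17.1, pandas 2.3.3, matplotlib 3.10.9) and R 4.3.3 (limma 3.58.1, linear fit with a trend over 8 libraries, Benjamini-Hochberg adjustment) were used. The recovered reads were also tested with edgeR 4.0.16 and DESeq2 1.42.0. The study describes its samples as biological replicates in general, and the labels do not say how the 2 RNA-seq libraries of a line were grown. In data simulated for *Ezh1/2* dKO against WT over 13872 genes, limma found 146 of the 200 genes with a 4-fold change (73.0%) and called 10 others. Of the 18055 genes of the table, 16570 matched the GENCODE annotation of mm9 by symbol and 854 by a synonym.

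Named genes were those at the 10 strongest members, up to 3 higher and 3 lower genes per line with both libraries beyond both WT libraries, those of the fixed lists, and those at the strongest members with given marks. Of the last kind, and of the 5 most expressed genes, only some are described. The sequence of the strongest member with SUZ12 in *Ezh1/2* dKO, a region with a background HA peak, was not printed. Labels of some Y726D samples do not name the *Ezh1* knockout, and these samples were treated as that line. Alternatives varied the distance, thresholds, overlap, filters, pseudocount, scaling, test and libraries. RING1B, H2AK119ub, WT H3K27ac, input DNA, EZH2 rescue lines and cells given MG132 or its solvent DMSO are not analysed here. Some genes that the rule names are not reported here.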

Additional observations from a re-analysis of the deposited data

How the results depend on the processing

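The shares of unmarked peaks are for members defined by 1 bp of overlap with H3K27me3, and other settings moved them. With members more than 1 kb from H3K27me3, SUZ12 in *Ezh2* KO was at 3.32%, H3K27me3 in *Ezh2* KO and *Ezh2* R685C at 38.1% and 54.1%, H3K27ac at 17.4% in *Ezh2* KO, 22.7% in the dKO line, 50% in *Ezh2* Y726D and 31.6% in *Ezh2* R685C, and HA-EZH1 at 13.1%. Beyond 5 kb, SUZ12 was at 2.93%, 0.267% and 10.7% in *Ezh2* KO, *Ezh1/2* dKO and *Ezh2* R685C, H3K27me3 at 36.0% and 53.6%, H3K27ac at 20.3%, 25.6%, 53.9% and 35.2%, HA-EZH1 at 11.7%, H3K27me2 at 30.5% in WT and 78.5% in *Ezh2* KO, and open chromatin in *Ezh2* KO at 96.3%. With mutant peaks at a p of at most 1e-20, SUZ12 was at 1.16%, 0.0895%, 2.33% and 2.95%, H3K27me3 in *Ezh2* KO and *Ezh2* R685C at 38.8% and 45.9%, and H3K27ac at 3.13%, 3.31%, 15.4% and 8.68%. With 50% of the peak overlapped, SUZ12 in *Ezh2* KO, *Ezh2* Y726D and *Ezh2* R685C was at 3.67%, 18.4% and 9.04%, H3K27me3 at 46.6% and 59.4%, H3K27ac at 8.77%, 11.5%, 35.4% and 15.9%, and HA-EZH1 at 17.4%. Blocks of H3K27me2 in place of whole regions touched 36.6% in *Ezh2* KO, 0.470% in *Ezh2* Y726D, 0.0939% in *Ezh1/2* dKO and 0% in WT. A start site within 1 kb was found at 71.4%. The settings without chromosome X and without members that have a background HA peak were chosen after seeing the data. Without X, SUZ12 and H3K27me3 in *Ezh1/2* dKO were at 0.290% and 0.0967% and H3K27me3 in *Ezh2* Y726D at 0.290%, and without the background HA members these were 0.181%, 0% and 0.181%. The WT median per kb was 11.4 with a mean count of at least 5 and 8.001 without X.

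For genes of unmarked peaks, *Ezh2* KO gave 1 lower gene with no filter, a mean count of at least 20, quantile scaling, the replicate block, edgeR and without X, and 8 with DESeq2. *Ezh1/2* dKO gave 17 higher genes with quantile scaling and 12 beyond 5 kb, and 1, 4 and 1 lower genes with no filter, quantile scaling and beyond 5 kb. *Ezh2* Y726D gave 1 higher and 0 lower genes when only its own and the WT libraries were fitted, 6 higher beyond 5 kb and 4 lower with no filter. Leaving out 1 library at a time gave 0 to 29 higher and 0 to 2 lower genes in *Ezh1/2* dKO, 8 to 16 and 4 to 12 in *Ezh2* Y726D, and 0 to 1 and 0 to 5 in *Ezh2* KO. The replicate block gave 25 higher genes in *Ezh1/2* dKO and 16 in *Ezh2* Y726D. All counts in this paragraph lack a share of all genes tested and are no result about the unmarked peaks. The replicate numbers mark no shared culture in the labels, and the deviations of same-numbered libraries correlated between −0.41 and 0.29, so the samples share only a number. The cause of these changes was not tested. Another 129 values under alternatives stayed inside the interval of the reported share or near the reported count. For single named genes, 184 values kept their call and 73 lost it, and 0 changed direction. With unknown ChIP-seq depth, a missing peak is a peak not called.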
